A study of Mus musculus with 12 samples.

Results

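The Zfp9 series is a set of mouse genes whose symbols, Zfp with a number that starts with 9, name them as genes of zinc finger proteins. Members were taken by symbol alone, as the rows of the deposited gene table named Zfp followed by 9 and another 2 digits. This gave 33 genes, Zfp930 to Zfp964 with gaps, of 34745 genes in the table. Their RNA was measured in the femoral bone marrow of male ICR mice, an outbred stock. There were 4 groups of 3 mice. Mice of the normal group were given saline. The model, QJSB and leucogen groups all received cyclophosphamide, an alkylating cytostatic drug that depletes blood-forming cells, at 80 mg/kg per day by intraperitoneal injection from day 5 to day 7. The QJSB group was also given Qi-Jing-Sheng-Bai granule, a formula of traditional Chinese medicine, by mouth at 3 g/kg per day, and the leucogen group was given leucogen, a drug used against leucopenia, by mouth at 20 mg/kg per day, each for 1 week. Both treated groups therefore carry the cyclophosphamide of the model group, and differ from it by the second agent. Whole marrow is a mixture of cell types, so fewer cells of a type and less RNA per cell cannot be told apart here.

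Most C2H2 zinc finger proteins bind DNA through a row of short fingers, each holding a zinc ion between a pair of cysteines and a pair of histidines. Neighbouring fingers are joined by a linker that is highly conserved in this class. Many of the mouse Zfp genes also encode a KRAB domain, which recruits the co-repressor TRIM28 and, through it, the histone methyltransferase SETDB1 to silence bound loci, transposable elements among them. Such genes have multiplied by duplication and often lie side by side, so that neighbours share long stretches of sequence.

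All 33 genes were found in the GENCODE M21 annotation of GRCm38. It classes 32 as protein coding and Zfp939 as a transcribed unprocessed pseudogene. They lie on 12 chromosomes, with 10 members on chromosome 17, 5 each on chromosomes 7 and 8, and 3 on chromosome 13. A row of 7 members (Zfp948, Zfp942, Zfp943, Zfp947, Zfp944, Zfp946 and Zfp945) occupies chr17:21567008-22867134. Zfp930, Zfp964 and Zfp963 lie together at chr8:69209038-69749970, and Zfp935 and Zfp934, whose M21 models overlap, at chr13:62453715-62571199. In the deposited table, 23 of the 33 have the same start and end as in M21 and 10 differ, Zfp930, Zfp934 and Zfp935 among them, and the table's loci of Zfp934 and Zfp935 do not overlap. Of the 32 coding genes, 21 have 4 coding exons and 7 have 3, and the coding length runs from 450 to 2382 bases with a median of 1492. The linker shows in DNA as ACNGGNGANAANCC, read on the coding strand and in frame. In Zfp939, which has no annotated coding sequence, it was counted in any frame. It occurred in 31 of the 33 genes, up to 16 times in Zfp950, with a median of 7 copies. Zfp935 and Zfp957 held none in the transcript examined.

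Where successive linkers stand 84 bases apart, the stretch from the start of a linker to the end of the next holds 1 whole finger. The following stretches from GENCODE M21 belong to members that the results below turn on, and show what the family shares and where its members part. Capitals mark the linker motif at both ends. Except for Zfp939, which has no annotated coding sequence, each lies within a coding exon. Zfp949 is at chr9:88569837-88569934 on the plus strand, Zfp939 at chr7:39474010-39474107 (plus), Zfp947 at chr17:22145475-22145572 (minus), Zfp944 at chr17:22339552-22339649 (minus), Zfp942 at chr17:21928766-21928863 (minus), Zfp953 at chr13:67343228-67343325 (minus), Zfp934 at chr13:62518275-62518372 (minus), Zfp933 at chr4:147826581-147826678 (minus), Zfp938 at chr10:82225568-82225665 (minus), Zfp951 at chr5:104815007-104815104 (minus) and Zfp963 at chr8:69742918-69743015 (minus).
Zfp949: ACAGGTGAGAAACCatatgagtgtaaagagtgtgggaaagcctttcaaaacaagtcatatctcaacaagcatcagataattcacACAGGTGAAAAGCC
Zfp939: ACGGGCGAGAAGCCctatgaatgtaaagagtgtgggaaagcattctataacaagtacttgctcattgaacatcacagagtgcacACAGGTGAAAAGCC
Zfp947: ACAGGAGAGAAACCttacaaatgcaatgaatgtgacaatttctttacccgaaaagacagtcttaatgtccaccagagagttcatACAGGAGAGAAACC
Zfp944: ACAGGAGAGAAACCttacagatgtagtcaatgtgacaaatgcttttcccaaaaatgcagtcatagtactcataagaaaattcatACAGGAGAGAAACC
Zfp942: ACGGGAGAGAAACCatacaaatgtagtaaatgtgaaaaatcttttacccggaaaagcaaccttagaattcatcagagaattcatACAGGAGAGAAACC
Zfp953: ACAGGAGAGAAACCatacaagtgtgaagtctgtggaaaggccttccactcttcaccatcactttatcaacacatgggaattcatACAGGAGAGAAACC
Zfp934: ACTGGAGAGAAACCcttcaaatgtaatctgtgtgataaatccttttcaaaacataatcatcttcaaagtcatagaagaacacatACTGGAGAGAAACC
Zfp933: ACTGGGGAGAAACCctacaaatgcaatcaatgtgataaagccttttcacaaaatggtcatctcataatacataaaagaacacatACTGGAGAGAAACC
Zfp938: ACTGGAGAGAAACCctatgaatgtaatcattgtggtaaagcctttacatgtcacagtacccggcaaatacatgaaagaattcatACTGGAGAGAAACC
Zfp951: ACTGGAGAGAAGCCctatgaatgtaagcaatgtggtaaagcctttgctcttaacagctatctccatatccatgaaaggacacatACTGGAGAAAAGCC
Zfp963: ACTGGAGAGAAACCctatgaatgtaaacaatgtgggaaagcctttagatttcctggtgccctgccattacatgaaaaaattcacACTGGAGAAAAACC

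The 28 members with such a stretch were compared base by base over its 84-base repeat. The same base stood in all 28 at 23 positions, 10 of them in the linker that the search required. Identity over the 378 pairs ran from 46.4% to 86.9% with a median of 64.3%. Among the 7 neighbours on chromosome 17 the median of the 21 pairs was 78.6%, against 61.9% for the 147 pairs of a neighbour with another member. The 210 pairs outside the row had a median of 66.7% and reached 86.9%, the highest value inside it too. Each stretch is the first such one found in its transcript, so fingers were not matched to each other between genes. Zfp942 and Zfp944, both in that row, had 66 of 84 bases in common, and Zfp933 and Zfp934, on different chromosomes, had 68.

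Shared sequence also bears on how surely a read belongs to a gene. Every 50-base window of a member's annotated transcripts was looked up in all other genes. The median member shared 2.26% of its windows exactly with another gene, but 12 members shared more than 10%. Zfp935 shared 100% (99.2% with the overlapping model Gm49359), Zfp960 82.7% (81.4% with Zfp97), Zfp963 39.4%, Zfp932 37% and Zfp934 29.5%. For Zfp939, Zfp944 and Zfp947 the share was 11.7%, 10.4% and 20%, while Zfp949 shared 0 of 4227 windows. Counts of the members with large shares are uncertain, since the way reads with several matches were counted is not given in the sources used here.

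Library totals were 14164054 to 14876552 counts in normal, 13279282 to 16922274 in model, 16758401 to 18545198 in QJSB and 11172547 to 14766064 in leucogen mice. The members together took 0.0791 to 0.0879% of the counts in normal, 0.0584 to 0.0913% in model, 0.0515 to 0.0611% in QJSB and 0.0835 to 0.0946% in leucogen libraries. The summed RNA levels of markers of marrow cells differed widely between groups. The summed level of 10 B cell markers was 1663 to 1686 CPM (counts scaled to the library total, with TMM factors) in normal marrow and 9.97 to 120 in the 3 other groups, and Vpreb3 was at 0 in QJSB and leucogen libraries. That of 11 erythroid markers was 16990 to 20604 CPM in normal and 178 to 1817 CPM elsewhere. Late neutrophil markers ran from 19020 to 22731 CPM in normal, 4787 to 19771 in model, 7321 to 37710 in QJSB and 48632 to 57825 in leucogen mice, and promyelocyte markers from 732 to 948, 6580 to 9587, 8169 to 9022 and 3414 to 4565. Summed levels in model and QJSB libraries overlapped for each of these 4 lists. The part of these shifts in the members' values was not tested.

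There were 6 members with a mean above 10 FPKM (fragments scaled to transcript length and to the library total) over the 12 libraries, 20 with 1 to 10, and 7 under 1. The highest was Zfp935, at 15.2 ± 1.58 FPKM in normal, 18.3 ± 4.87 in model, 15.7 ± 2.51 in QJSB and 30.0 ± 2.55 in leucogen mice (mean ± SD, n = 3). Its level rests on a counted model of only 1062 bases and on the sequence shared with Gm49359. Zfp944 followed with 20.2 ± 2.01, 18.0 ± 5.39, 14 ± 0.918 and 24.6 ± 1.13 FPKM in the same order. Zfp953 had 14.8 ± 2.14, 11.7 ± 2.70, 9.14 ± 1.63 and 17.8 ± 1.82 FPKM. In these 3 genes the 3 leucogen libraries were the highest group by mean, and for Zfp935 every leucogen library exceeded the other 9.

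Zfp942, Zfp943 and Zfp930 completed the 6, with group means of 7.97 to 13.9, 7.44 to 15.1 and 7.60 to 13.4 FPKM. For these 3 genes the FPKM of normal and model libraries overlapped, and QJSB had the lowest mean. At the other end, Zfp941 averaged 0.160 FPKM, with 7 to 37 counts per library. Zfp936 had 2 counts over all 12 libraries and Zfp957 had 3, and neither passed the filter on low counts. Tests thus cover 31 members, or 30 where Zfp941 (leucogen against normal) or Zfp960 (QJSB against leucogen) was also removed.

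**Figure D1:**
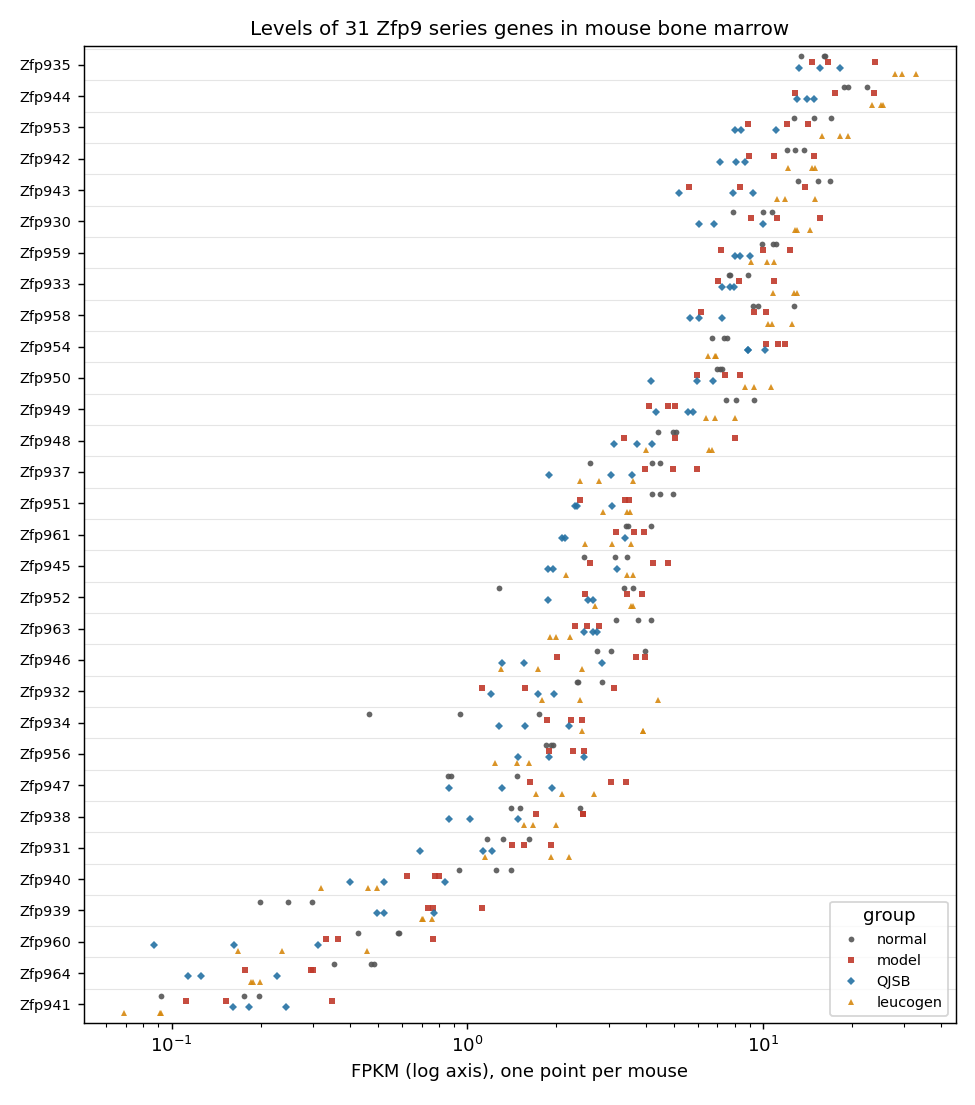
FPKM of the 31 Zfp9 series genes above the lowest 2, on a log axis, ordered by mean level. Each point is a mouse, coloured and shaped by group. Mean levels run from Zfp941 (0.160 FPKM) to Zfp935 (19.8 FPKM), and the leucogen points of Zfp935 lie right of all others.

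The members' transcripts are poor in G and C. The GC content of their longest M21 transcript ran from 33.2% to 53.9% with a median of 38.7%, and 18 of 33 were under 40%, whereas the median of all tested genes was 48.8%. This matters because fold changes followed GC content across the whole transcriptome. Across genes, which are not independent replicates, Spearman's rho of GC content with the log2 fold change was 0.130 in model against normal, 0.365 in QJSB against model, -0.351 in leucogen against model, 0.260 in QJSB against normal, -0.146 in leucogen against normal and 0.521 in QJSB against leucogen. For that reason the calls among the 33 members are also counted below with the GC trend of each library removed. This alternative was chosen after seeing the data. The correction takes out everything that runs with GC content, and a preparation effect and a true difference cannot be told apart by it.

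**Figure D2:**
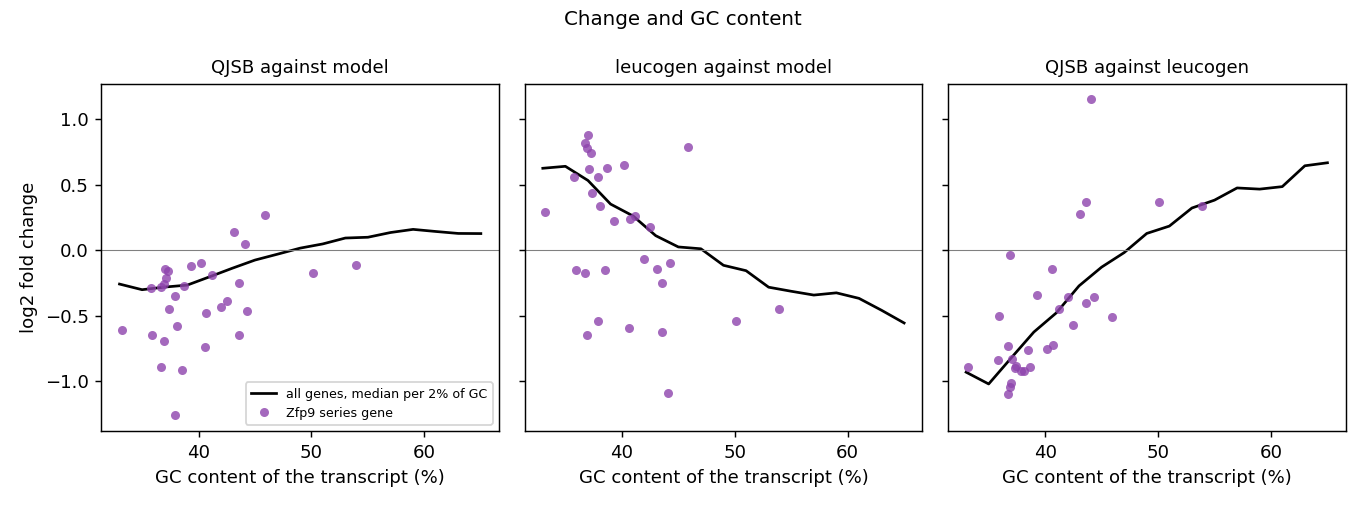
Log2 fold change against GC content of the longest transcript (%), for QJSB against model, leucogen against model and QJSB against leucogen. Purple points are Zfp9 series genes and the black line is the median of all tested genes per 2% of GC. Genes under 40% GC had medians over all genes of -0.277, 0.439 and -0.746 in the 3 comparisons.

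The question of model against normal was which members differ in marrow after cyclophosphamide. Zfp939 and Zfp947 were higher and Zfp949, Zfp964, Zfp940, Zfp951 and Zfp963 lower. A gene was called at an absolute log2 fold change over 0.585 (1.5-fold) and a Benjamini-Hochberg adjusted p under 0.05 in edgeR's quasi-likelihood test. The 2 higher and 5 lower calls among 31 members stand beside 16.1% of all 14752 tested genes called higher and 19% called lower. Of the members tested that is 6.45% and 16.1%. Their median log2 fold change was -0.10, that of 266 other numbered Zfp genes -0.09 and that of all genes 0.02. With total counts in place of TMM the members' median was 0.02 and that of all genes 0.14, with 3 members higher and 2 lower.

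Zfp949 (ENSMUSG00000032425, chr9:88548020-88571061) had 45.5, 48.7 and 55.1 CPM in the normal mice and 25.2, 27.9 and 24.1 CPM in the model mice. The groups lay far apart, and its log2 fold change was -0.96 ± 0.14 (SE), with an edgeR adjusted p of 0.000993. It stayed past the cutoff under each alternative of scaling, filter, tool, block, left-out library and GC trend, where the fold change ran from -1.02 to -0.83. Zfp940, on chromosome 7, had 8.60, 11.4 and 12.5 CPM in normal and 6.41, 6.58 and 5.54 CPM in model mice. Every model library was below every normal one, with a log2 fold change of -0.82 ± 0.21 (edgeR adjusted p = 0.0146).

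Zfp964 and Zfp963, which lie in the same row on chromosome 8, were both lower. Zfp964 had 3.25, 4.30 and 4.36 CPM in normal and 2.37, 2.55 and 1.58 CPM in model mice, a log2 fold change of -0.89 ± 0.30 (edgeR adjusted p = 0.0412). Zfp963 had 10.6, 11.6 and 8.73 against 6.82, 6.51 and 6.24 CPM, or -0.67 ± 0.19 (edgeR adjusted p = 0.0227). The third gene of that row, Zfp930, was at 0.20 ± 0.24 and was not called. Zfp951, on chromosome 5, had 30.1, 25.3 and 26.7 CPM in normal and 18.0, 19.7 and 14.2 CPM in model mice, or -0.67 ± 0.17 (edgeR adjusted p = 0.0149). In all 3 called genes the groups did not overlap.

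In the opposite direction, Zfp939 had 0.506, 0.750 and 0.614 CPM in normal and 1.62, 2.62 and 1.87 CPM in model mice. This rests on 7 to 11 counts per normal and 28 to 37 counts per model library. Its log2 fold change was 1.68 ± 0.37 (edgeR adjusted p = 0.00775), and the alternatives that kept the gene placed it between 1.47 and 1.83 and past the cutoff. Zfp947, in the row on chromosome 17, had 2.53, 4.30 and 2.52 CPM in normal and 7.80, 9.27 and 4.61 CPM in model mice, or 1.20 ± 0.34 (edgeR adjusted p = 0.0228). Its lowest model library was just above its highest normal library. The 6 neighbours of Zfp947 had log2 fold changes from -0.83 (Zfp943) to 0.22 (Zfp945), and none was called in this fit, where Zfp943 had an edgeR adjusted p of 0.0596.

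With the GC trend removed, 3 members were higher (Zfp934 at 1.23 was added) and 4 lower (Zfp943 at -0.60 was added), with a median of 0.12. Of all 14687 genes in that setting 15.1% were called higher and 19.1% lower. Zfp949, Zfp964 and Zfp940 stayed called at -0.97, -0.83 and -0.76, while Zfp951 (-0.52) and Zfp963 (-0.58) ended short of 1.5-fold. The lower calls also fell to 2 without normal replicate 1, 2 without normal replicate 2, 3 without normal replicate 3 and 3 without model replicate 3, and the higher calls to 1 without normal replicate 3 or model replicate 2.

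**Figure D3:**
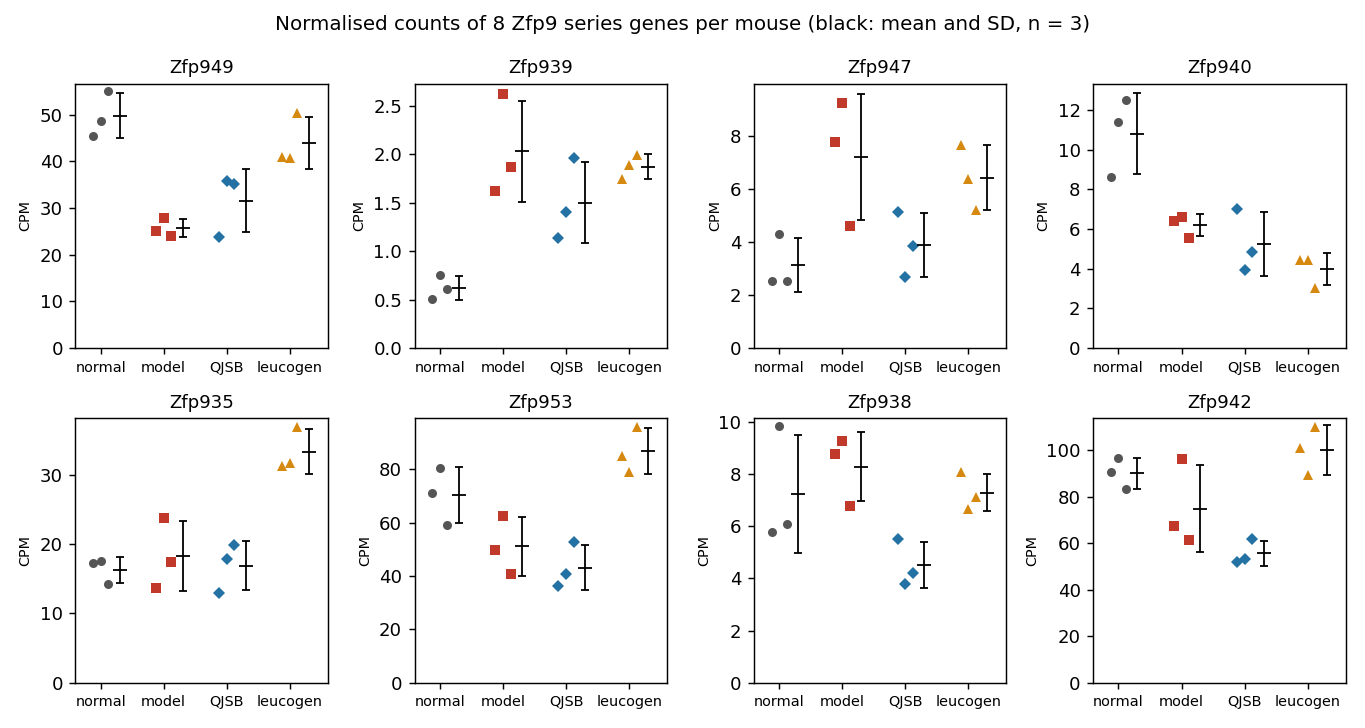
TMM-scaled CPM of 8 Zfp9 series genes in each mouse, with the mean and SD of each group in black (n = 3). Zfp949 lay at 45.5 to 55.1 CPM in normal, 24.1 to 27.9 CPM in model and 40.7 to 50.3 CPM in leucogen mice, and the leucogen mice had the highest values of Zfp935.

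Leucogen against model sets mice given the reference drug against mice given cyclophosphamide without it. Zfp935, Zfp934, Zfp949, Zfp953, Zfp933 and Zfp944 were higher in leucogen mice and no member was lower at the adjusted cutoff. The 6 of 31 stand beside 11.6% of 14184 genes called higher and 11.5% called lower. The members' median log2 fold change was 0.22, that of the other numbered Zfp genes -0.00 and that of all genes -0.05. At an unadjusted p under 0.05 the edgeR test had 9 members higher and 3 lower, beside 5825 of 14184 genes in either direction. DESeq2 also called 6 members higher and 0 lower, beside 1787 and 1732 of 21097 genes. With total counts in place of TMM the medians were 0.05 for the members and -0.22 for all genes, with 3 members higher and 2 lower.

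Zfp949 had 40.9, 40.7 and 50.3 CPM in leucogen mice against 25.2, 27.9 and 24.1 CPM in model mice. All leucogen libraries were above all model libraries, with a log2 fold change of 0.79 ± 0.16 (edgeR adjusted p = 0.00882). Leucogen and normal mice overlapped for this gene, with a log2 fold change of -0.16 ± 0.12 between them (edgeR adjusted p = 0.3). With the GC trend removed the value against model was 0.75, with an adjusted p of 0.00717. The transcript of Zfp949 has 45.9% GC, close to the median of all genes.

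Zfp935 had 31.2, 31.6 and 36.9 CPM in leucogen and 13.7, 23.8 and 17.4 CPM in model mice, or 0.88 ± 0.21 (edgeR adjusted p = 0.0175). Zfp953 had 85.1, 79.1 and 96.0 against 49.9, 62.5 and 40.9 CPM, or 0.78 ± 0.18 (edgeR adjusted p = 0.0158). Zfp934 had 9.19, 9.86 and 6.08 against 4.68, 5.38 and 4.32 CPM, or 0.82 ± 0.25 (edgeR adjusted p = 0.0396). In these genes the leucogen libraries again lay above every model library, and model replicate 2 was the highest of the model mice. Zfp933 and Zfp944, at 0.65 and 0.63, passed the cutoff more narrowly, with edgeR adjusted p of 0.029 and 0.0487.

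These 5 genes have transcripts of 36.7% to 40.2% GC. Without the GC trend their values dropped to 0.35 (Zfp935), 0.25 (Zfp953), 0.28 (Zfp934), 0.34 (Zfp933) and 0.23 (Zfp944), and none was called. In that setting Zfp949 was the only member higher, and 4 were lower: Zfp946 at -1.17, Zfp937 at -0.88, Zfp945 at -0.75 and Zfp938 at -0.72, with adjusted p of 0.0097, 0.0138, 0.022 and 0.0235. The members' median then was -0.13, and 10.7% of all genes were called higher and 8.98% lower. The count of 6 also rested on single libraries, being 0 without leucogen replicate 3, 1 without leucogen replicate 1, 3 without model replicate 1, 3 without model replicate 3 and 11 without model replicate 2. Without leucogen replicate 3 Zfp949 kept a log2 fold change of 0.67 with an adjusted p of 0.0516.

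QJSB against model sets mice given the formula against mice given the same cyclophosphamide without it. No member passed the adjusted cutoff, nor did any of the 14486 genes tested (0%). At an unadjusted p under 0.05 the edgeR test had 723 genes and 4 members, and DESeq2 called 4 genes higher and 4 lower at the adjusted cutoff but 0 members. The study's own cutoff was the same fold change with an unadjusted P under 0.05, applied there with DESeq2. Applied here to the edgeR test, 4 of 31 members were past it and all 4 were lower in QJSB mice. Of all genes 3.08% passed this cutoff, 1.4% as lower. Of the 31 members 28 had a negative log2 fold change, beside 68.4% of 275 other numbered Zfp genes and 52% of all genes. The members' median was -0.29, against -0.13 for those Zfp genes and -0.02 for all genes. Genes under 40% GC had a median of -0.277.

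Zfp938, on chromosome 10, had 5.51, 3.79 and 4.22 CPM in QJSB mice and 8.78, 9.27 and 6.77 CPM in model mice. The groups did not overlap, with a log2 fold change of -0.89 ± 0.27, an unadjusted p of 0.00993 and an edgeR adjusted p of 0.767. Zfp937 had 9.29, 5.71 and 8.75 against 12.4, 15.7 and 11 CPM, or -0.74 ± 0.27 (edgeR unadjusted p = 0.0235, adjusted p = 0.767). Zfp945 had 43.3, 29.5 and 29.2 against 62.0, 58.1 and 37.3 CPM, where the groups overlapped, or -0.65 ± 0.25 (edgeR unadjusted p = 0.03, adjusted p = 0.767). The fourth, Zfp947, was at -0.91 ± 0.36 and had overlapping groups too.

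Zfp949, which differed between model and the 2 groups of normal and leucogen mice, had 23.8, 35.7 and 35.2 CPM in QJSB mice. The lowest of these lay below every model library and the other two above every one, with a log2 fold change of 0.27 ± 0.20 against model (edgeR adjusted p = 0.784). With the replicate number as a block, 6 members passed the study's cutoff, Zfp946 and Zfp960 being added, and 0 passed the adjusted one. Of all 14486 genes, 433 passed the study's cutoff as higher and 397 as lower with that block. With the GC trend removed 1 member passed the study's cutoff (2 with the block added), 20 of 31 were negative and the median was -0.16. Of the other numbered Zfp genes 59.1% were then negative. Of 14420 genes 172 passed that cutoff as higher and 139 as lower (368 and 312 with the block added). The 4 became 2 without model replicate 1, 1 without model replicate 2, 7 without model replicate 3, 7 without QJSB replicate 1 and 1 without QJSB replicate 2. In the same order 193, 149, 490, 844 and 64 of all genes passed it as higher. As lower, 151, 96, 561, 872 and 85 did.

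**Figure D4:**
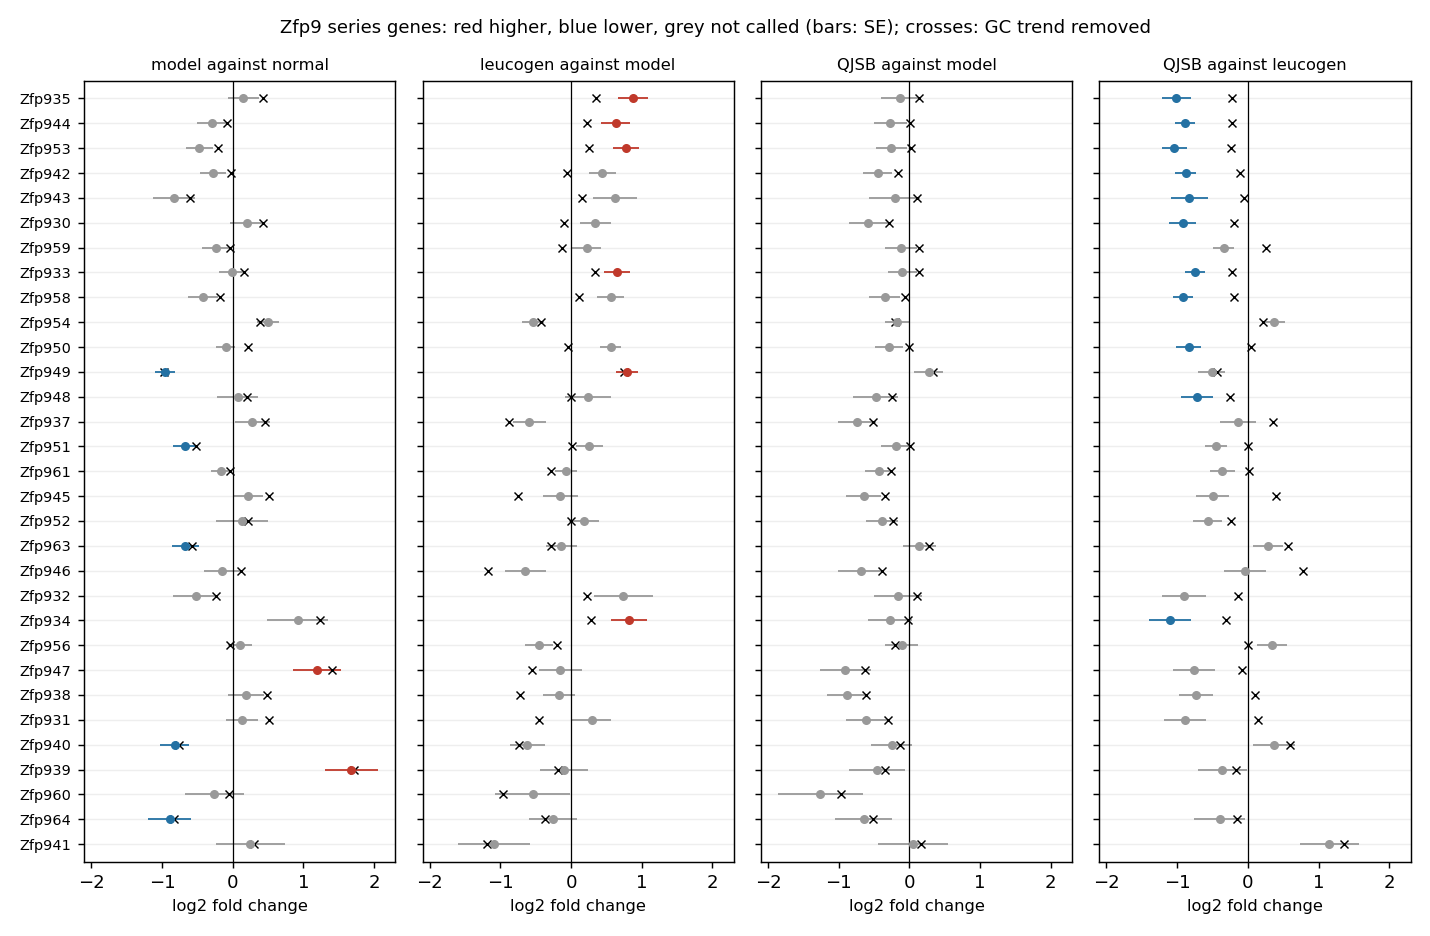
Log2 fold changes of 31 Zfp9 series genes in 4 comparisons, with points for the estimate, bars for its SE and crosses for the value with the GC trend removed. Red and blue points passed the adjusted cutoff as higher and lower, and the blue points of QJSB against leucogen (11 genes) have crosses near 0.

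Both treated groups were also set against normal mice. In QJSB against normal, Zfp939 was higher and 11 members were lower (Zfp932, Zfp940, Zfp942, Zfp943, Zfp946, Zfp949, Zfp951, Zfp953, Zfp958, Zfp960 and Zfp964), beside 18% of 14817 genes called higher and 19.9% lower. The members' median was -0.46, against 0.02 for all genes and -0.493 for genes under 40% GC. The other numbered Zfp genes had a median of -0.18, with 23.1% of 268 called lower. Zfp942 had 51.9, 53.3 and 61.6 CPM in QJSB and 90.7, 96.4 and 83.1 CPM in normal mice, a wide gap, with a log2 fold change of -0.70 ± 0.12 (edgeR adjusted p = 0.00258). Zfp951 had 16.9, 15.0 and 14.1 CPM in QJSB mice, or -0.84 ± 0.14 (edgeR adjusted p = 0.00277). Zfp964 had 1.89, 1.11 and 1.16 CPM, or -1.51 ± 0.32 (edgeR adjusted p = 0.0068), so that both genes lay below every normal library. With the GC trend removed 1 member was higher and 3 were lower, beside 14.7% and 18.4% of all genes, and Zfp942 was at -0.19. The members' median was then -0.07. The 11 became 5 without normal replicate 2 and 7 without normal replicate 3, and Zfp939 was no longer called when any of the 3 normal libraries, QJSB replicate 2 or QJSB replicate 3 was left out.

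In leucogen against normal, 5 of 30 members were higher (Zfp934, Zfp939, Zfp947, Zfp935 and Zfp933) and 4 lower (Zfp940, Zfp964, Zfp963 and Zfp946). Of 14637 genes 17.8% were called higher and 19.8% lower. The members' median was 0.12, against -0.01 for all genes, 0.01 for the other numbered Zfp genes and 0.228 for genes under 40% GC. Zfp935 had 17.3, 17.5 and 14.2 CPM in normal mice, below each of the 3 leucogen values above, with a log2 fold change of 1.04 ± 0.13 (edgeR adjusted p = 0.000102). Zfp940 had 4.44, 4.42 and 3.04 CPM in leucogen mice, or -1.43 ± 0.22 (edgeR adjusted p = 0.000429). Zfp933 had 57.0, 51.6 and 61.8 CPM in leucogen and 35.3, 40.2 and 34.3 CPM in normal mice, or 0.65 ± 0.11 (edgeR adjusted p = 0.000818). With the GC trend removed the counts were 4 and 4, beside 16.6% higher and 20.2% lower of all genes. Zfp935 and Zfp940 were then at 0.76 and -1.51, and Zfp933, at 0.48, ended short of the fold. Model, QJSB and leucogen mice were each compared with the same 3 normal mice, so these comparisons share samples. In them Zfp939 was at 1.68, 1.24 and 1.59, Zfp940 at -0.82, -1.05 and -1.43, and Zfp964 at -0.89, -1.51 and -1.13.

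QJSB against leucogen compares the 2 treatments. No member was higher and 11 of 30 were lower in QJSB mice (Zfp930, Zfp933, Zfp934, Zfp935, Zfp942, Zfp943, Zfp944, Zfp948, Zfp950, Zfp953 and Zfp958), beside 12.9% of 14266 genes called higher and 11.7% called lower. The median was -0.65 in the members, -0.11 in 269 other numbered Zfp genes and 0.03 in all genes. Zfp958, on chromosome 8, had 19.4, 17.7 and 17.9 CPM in QJSB and 36.3, 32.2 and 32.9 CPM in leucogen mice, with a log2 fold change of -0.92 ± 0.14 (edgeR adjusted p = 0.00405). Zfp944 had 33.5, 44.5 and 40.4 against 70.7, 74.6 and 68.8 CPM, or -0.89 ± 0.14 (edgeR adjusted p = 0.00447). Zfp942 had the QJSB values above against 101, 89.3 and 110 CPM, or -0.88 ± 0.15 (edgeR adjusted p = 0.0049). The groups lay clearly apart in all 3 genes. Of the row of 7 on chromosome 17, Zfp942, Zfp943, Zfp944 and Zfp948 were lower, and the other three were at -0.76 (Zfp947), -0.50 (Zfp945) and -0.04 (Zfp946). For the 0 higher calls, the edgeR test had 2 members higher and 18 lower at an unadjusted p under 0.05. Over all genes 6004 of 14266 passed that threshold in either direction. DESeq2 called 0 members higher and 14 lower, beside 1918 and 1862 of 21450 genes.

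This difference ran with GC content among the members as among all genes. Members under 40% GC had a median of -0.89 (16 genes, 9 of them called) and the rest -0.36 (14 genes, 2 called), and over the 30 members Spearman's rho of GC content with the fold change was 0.70. With the GC trend removed 0 members were lower and 0 higher, with 0 lower and 3 higher at an unadjusted p under 0.05 and a median of -0.07. Calls over all genes then were 6.74% higher and 5.82% lower, and 4643 of 14200 genes had an unadjusted edgeR p under 0.05. Zfp958, Zfp944 and Zfp942 were then at -0.19, -0.23 and -0.11. Zfp949 was at -0.51 ± 0.19 before and -0.43 after that step, and did not pass in either.

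Genes of the KRAB co-repressors and of chromatin silencing more widely were read alongside, as a list of 32 of which 31 were tested. In model against normal 2 were higher, Dnmt3b at 0.93 (edgeR adjusted p = 0.0139) and Ehmt2 at 0.77 (edgeR adjusted p = 0.00703), which encode a DNA methyltransferase and a histone methyltransferase. Atf7ip, a partner of SETDB1, was lower at -0.87 (edgeR adjusted p = 0.000988), as was the chromatin remodeller Chd3 at -0.72 (edgeR adjusted p = 0.0103). Trim28 had 149, 149 and 154 CPM in normal and 222, 131 and 230 CPM in model mice, which overlapped, with a log2 fold change of 0.35 ± 0.20 (edgeR adjusted p = 0.185). Setdb1 was at 0.37 ± 0.12 (edgeR adjusted p = 0.0352), under the fold cutoff. The median of the list was 0.08. Its calls were 6.45% in each direction, below the 16.1% higher and 19% lower of all genes. With the GC trend removed 3 were higher (9.68%) and 2 lower (6.45%), beside 15.1% and 19.1% of all genes.

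In leucogen against model 3 of the list were higher (Fam208a, Morc3 and Atrx) and 5 lower (Trim28, Dnmt3b, Mta1, Ehmt2 and Mbd3), with a median of -0.24 against -0.05 for all genes. That is 9.68% and 16.1% of the list, beside 11.6% and 11.5% of all genes. Trim28 had 81.4, 109 and 75.5 CPM in leucogen mice, below every model library, with a log2 fold change of -1.11 ± 0.23 (edgeR adjusted p = 0.00988). With the GC trend removed 0 of the list were higher and 5 (16.1%) lower, beside 10.7% and 8.98% of all genes. In QJSB against model 0 of the 31 passed the adjusted cutoff, and Trim28 was at 0.01 ± 0.26.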

How the data were processed

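Total RNA of femoral bone marrow from 12 ICR mice, 3 in each of 4 groups, was sequenced by the authors with strand-specific libraries after removal of ribosomal RNA. The reads were cleaned with Seqtk and aligned with HISAT2 to GRCm38 (mm10). The program that counted reads per gene, its annotation and its use of strand are not given in the sources used here. The authors deposited whole-number counts without normalization and FPKM (from fragments, transcript length and total fragments) for 34745 genes. Apart from Model, the column headings (Blank, Positive and Stilbene) are not group names of the labels, and were taken for the normal, leucogen and QJSB groups from what the words mean and by elimination. No column was left unused.

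Counts were tested with edgeR 4.0.16 in R 4.3.3 (TMM, filterByExpr, robust glmQLFit and glmQLFTest), in fits of the 6 libraries compared, for 6 comparisons. The members were set by symbol, but that rule, the rule for named genes and the lists were chosen with earlier results of these data known. The genes named are the 6 of highest mean FPKM, up to 6 per direction with the largest change in model against normal and up to 4 in leucogen against model, past the adjusted cutoff, and the 3 of lowest unadjusted p in the other comparisons, beside all called members by name. P-values measure the spread between mice, which exceeded counting error in every pair of libraries of a group. Totals of 11172547 to 18545198 counts limit the precision of members with few counts.

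Alternatives were DESeq2 1.42.0, limma 3.58.1 on log2(FPKM + 0.1) or log2(FPKM + 0.01), scaling by DESeq2 size factors or total counts, other filters, 1 fit of all 12 libraries, the replicate number as a block, and leaving out each library. Added after seeing the data were the removal of a lowess trend of log2 CPM on transcript GC content (span 0.3) and membership by GENCODE M21 names. Numbers were checked for pairing by the correlation of deviations from the group means. Over 15266 genes QJSB and model libraries of the same number gave 0.426, 0.124 and 0.104, so that the block is given beside that comparison, and no other comparison had 3 values above 0.1. Of the QJSB libraries only replicate 1 correlated best with the model library of its own number. The pairing comes from the data only. Amino acid sequences were not used here.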

Additional observations from a re-analysis of the deposited data

How the results depend on the processing

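Of the named results past a cutoff, 1 changed sign: with the GC trend removed, Zfp950 in QJSB against leucogen went from -0.84 to 0.04, and to 0.03 with the replicate block added. Members that were not called could turn too, as Zfp945 (0.40) and Zfp946 (0.78) did there. For the named results past a cutoff, the other alternatives of scaling, filter, tool, block and left-out library kept every sign. Of these values 591 kept the status of the main fit at the adjusted cutoff and 125 fell short of it. The 591 include values of Zfp938, Zfp937 and Zfp945 in QJSB against model, which passed only the study's cutoff and stayed uncalled.

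Removing the GC trend moved most counts of members. Without it, 1 member was higher and 4 lower in leucogen against model, 1 passed the study's cutoff in QJSB against model, 3 were lower in QJSB against normal and 0 in QJSB against leucogen. With the block added, these were 1, 4, 2, 2 and 0, and 3 were lower in model against normal, 0 higher in QJSB against normal and 1 higher in QJSB against leucogen. With total counts in place of TMM, which moved the median of all genes by more than 0.1 on the log2 scale in model against normal and leucogen against model, 2 members were lower in the former, and 3 higher and 2 lower in the latter. The limma tests on log2(FPKM + 0.1) and on log2(FPKM + 0.01) each left 1 lower in model against normal, and 3 higher and 2 lower in leucogen against model. With at least 10 counts in every library, 1 was higher in model against normal. The 1 member higher in QJSB against normal was 0 with DESeq2, without a filter, with at least 10 counts and with the replicate block. A joint fit of all 12 libraries put 7 past the study's cutoff in QJSB against model, beside 434 genes higher and 368 lower of 15310. The causes of these shifts were not tested, apart from the genes that a filter removed.

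Leaving out each library in turn gave 0 to 11 members higher and 0 to 1 lower in leucogen against model. It gave 1 to 2 higher and 2 to 7 lower in model against normal, 0 to 1 higher and 5 to 12 lower in QJSB against normal, 5 to 6 higher and 3 to 5 lower in leucogen against normal, 0 to 0 higher and 8 to 14 lower in QJSB against leucogen, and 0 to 0 in either direction in QJSB against model, where 1 to 7 passed the study's cutoff. Of the named results, 214 of these values kept the status of the main fit at the adjusted cutoff and 74 fell short of it, with no change of sign. The 214 include values of Zfp938, Zfp937 and Zfp945 in QJSB against model, which were uncalled throughout. A group left with 2 libraries draws its spread from both groups of the fit.

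With the replicate number as a block, 5 members were higher in leucogen against model (Zfp933 and Zfp934 not called, Zfp932 added). In QJSB against normal 8 were lower (Zfp932, Zfp946 and Zfp960 not called). In QJSB against leucogen 12 were lower (Zfp948 not called, Zfp932 and Zfp938 added). The 5 lower in model against normal then held Zfp943 in place of Zfp964. In QJSB against leucogen, every QJSB library correlated best with the leucogen library of its own number, which is a hint from the data and not from the design. The block in QJSB against model changed no call at the adjusted cutoff for a member, and called 14 genes higher and 4 lower in all.

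GENCODE M21 gives symbols of this series to 31 further genes with older names in the table, making 64. With them, 9 were higher and 6 lower of 47 tested in model against normal, 13 and 0 of 49 in leucogen against model, 4 and 13 of 47 in QJSB against normal, 19 and 5 of 48 in leucogen against normal, and 0 and 24 of 48 in QJSB against leucogen. These counts were not repeated with the GC trend removed. All-gene shares are given above. Depth limited members with few counts most. Zfp939 had 7 to 11 counts per normal library, and no statement on Zfp936 or Zfp957 was possible.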
